A study of Bos taurus with 71 samples.

Results

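Cytokines, chemokines and their receptors were followed across the rumen, the mid-jejunum and the ileum of pre-weaned calves. The genes were taken from a published list of immune-related genes detected in the jejunum or ileum of these calves, of which 1280 genes were at hand. Symbols that begin as those of CC, CXC or CX3C chemokines and their receptors, interleukins and their receptors, interferons and their receptors, tumour necrosis factor ligands and receptors, colony stimulating factors or transforming growth factor beta were kept. The choice used names and detection in the intestine and no difference between groups. It gave 54 genes, of which 53 were analysed here, among 21510 genes listed per library. No member with the symbol TNF, TGFB or TNFRSF was in the part of the list at hand.

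Tissue came from Holstein bull calves kept without experimental treatment. Each calf gave 1 library per region, so the rumen (RU), the mid-jejunum (MJ) and the ileum (IL) had 18 libraries each. At D0, on the day of birth and before colostrum, 3 calves were sampled. At D7, D21 and D42 (7, 21 and 42 days after birth) 5 calves were sampled per age, after colostrum and milk feeding, and different calves were used at each age. Per the study, the D21 and D42 calves also had free access to calf starter, and the D7 calves did not. Intestinal tissue was rinsed with buffer except at D0. Diet and rinsing thus go with age and cannot be told apart from it. A whole piece of tissue was ground for RNA, so fewer cells of a type and less RNA per cell cannot be told apart in any value below. Expression is given as CPM (counts per 1000000 mapped reads, rounded to whole numbers), and differences are on the log2(CPM + 1) scale with their standard error (SE). A gene was called at a fold change > 2 and a false discovery rate (FDR) < 0.05 in limma, adjusted over all genes tested.

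Chemokines are small secreted proteins that guide leukocytes through G protein-coupled receptors. Homeostatic chemokines are made without inflammation and place lymphocytes in lymphoid tissue or along the gut, as CXCL13 does for B cells in follicles and CCL25 for T cells and plasma cells in the small intestine. Interleukins, interferons and colony stimulating factors act through paired receptor chains, and one chain is often shared by several cytokines, such as the common gamma chain (IL2RG) for IL2, IL4, IL7 and IL21 and gp130 (IL6ST) for IL6, IL11 and IL27. In young calves the ileum carries a long continuous Peyer's patch in which B cells multiply, whereas the rumen is lined by a stratified squamous epithelium.

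The values of a library summed to between 970214 and 984626, and the number of reads behind them is not given in the files. The regions were checked against marker genes of cell types, as the summed CPM of each list. The 8 enterocyte markers summed to between 1 and 31 in the rumen, between 4389 and 49466 in the mid-jejunum and between 339 and 9425 in the ileum. The 6 B cell markers summed to between 19 and 49 in the rumen and between 29 and 319 in the mid-jejunum. In the ileum they summed to between 1093 and 2090 in 15 libraries, and to 60, 1716 and 333 in the libraries of D0 animal 1, D0 animal 2 and D42 animal 1. These 3 ileum libraries stand apart also because at most 5.47% of the listed immune genes had the same value as in the published table, against at least 98.1% in the other 33 intestinal libraries. For 32 of the 53 genes the D0 animal 1 library lay outside the range of the 15 other ileum libraries, and for 24 genes the D42 animal 1 library did so, against 7 genes for D0 animal 2. Of those 15 libraries, each lay outside the range of the other 14 for 0 to 21 genes. Called results that include the 3 libraries are therefore given with and without them, or as counts of the calls kept. At D0, where 1 ileum library is left without them, such counts between regions are not given. All 17 libraries labelled distal jejunum were identical to the ileum library of the same age and animal and added no samples.

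All 53 genes were detected (CPM > 1 in at least 50% of the libraries of a region) in both the mid-jejunum and the ileum, where the choice of the list required detection in either, and 38 of them in the rumen. The 15 genes not detected in the rumen were CCL25, CXCL13, CCL8, CCR9, CCRL2, CXCR6, IL7, IL27, IL2RA, IL2RB, IL7R, IL21R, IL10RA, CSF2RB and TNFSF8. They include 3 of the 4 chemokine receptors and 4 of the 6 members of the common gamma chain receptor family. Over all genes, 12900 were detected in the rumen, 13465 in the mid-jejunum and 13457 in the ileum. The list did not require detection in the rumen, so fewer genes detected there follow in part from the choice. The plot of group means by region and age shows the dark rumen columns of these genes, and the bright ileum columns of CXCR4, IL21R and CXCL13.

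**Figure D1:**
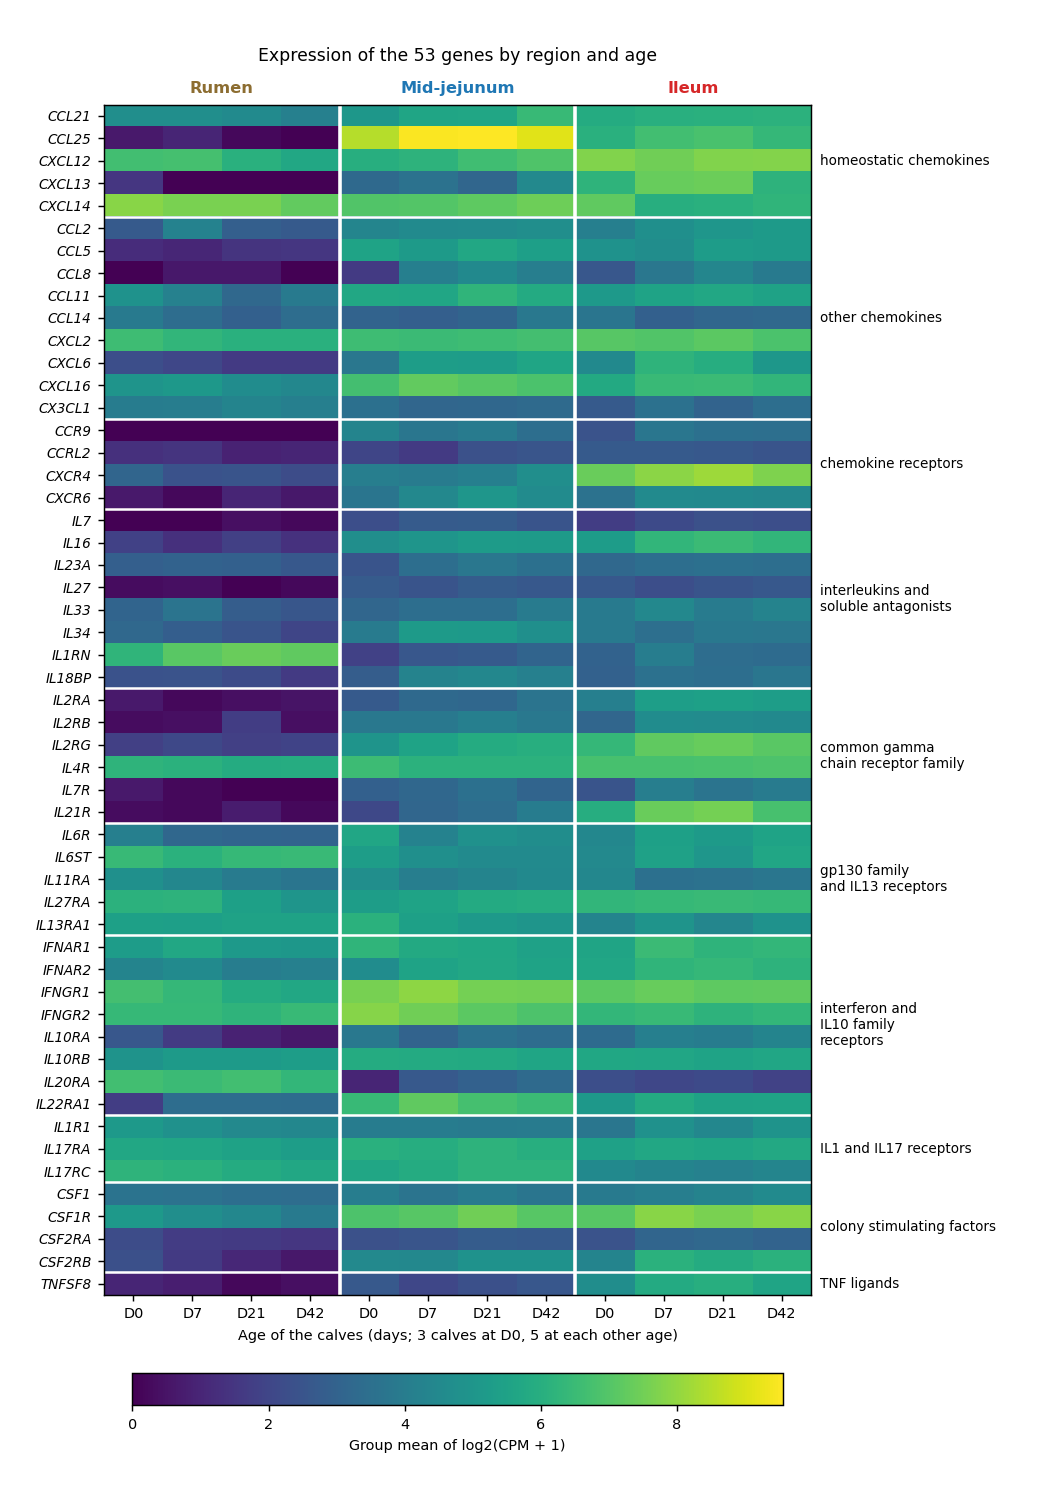
Group mean of log2(CPM + 1) for each of the 53 genes (rows, grouped by role) in the rumen, mid-jejunum and ileum at D0, D7, D21 and D42 (columns, 3 calves at D0 and 5 at each other age), with brighter cells for higher means. Of the 53 genes, 15 were not detected in the rumen, and IL1RN and IL20RA were bright in the rumen and dark in the intestine. Levels are not per gene length and are to be read along a row.

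The ileum and the mid-jejunum were compared at each age. Receptors and ligands that lymphocytes use, CXCR4, IL21R, TNFSF8, IL2RA, IL2RG and IL16, were higher in the ileum at each of D7, D21 and D42. The gut-homing chemokine CCL25 and the IL17 receptor chain IL17RC were higher in the mid-jejunum at these 3 ages. None of the 9 other (mostly inflammatory) chemokines was called between these regions at any age in limma with all libraries. Without the 3 ileum libraries, which leaves 1 ileum library at D0, the D0 differences were -1.46 for CCL5 and -1.28 for CCL11. CXCL6 was called higher in the ileum at D0 without animal 1 (1.18, FDR = 0.0458). CXCL6 at D7 without animal 5, CCL14 at D42 without animal 1 and CXCL16 at D7 with median-ratio scaling were called as well.

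At D7, 19 of 53 genes (35.8%) were called, 14 higher in the ileum and 5 higher in the mid-jejunum, beside 27.1% of 13942 genes tested (17.5% and 9.62% higher and lower). At D21, 13 genes were called (8 and 5), with 26.8% of all genes (14.7% and 12.1%). At D42, 12 genes were called (8 and 4), with 20.9% of all genes (13.3% and 7.64%), and 15 genes without the D42 animal 1 ileum library. Of the 12 calls, 11 were kept without it and that of IL6ST was lost (0.94, FDR = 0.00522), while CXCL13, IL2RB, IL11RA and IL22RA1 were called in addition. The shares at D21 and D42 were near those of all genes. The median difference of the 53 genes was 0.41 at D7, 0.28 at D21 and 0.14 at D42, beside 0.25, 0.12 and 0.15 over all genes. With median-ratio scaling the median of all genes moved by -0.27, -0.16 and -0.17, and the called genes split into 10 higher and 7 lower in the ileum at D7. That split was 7 and 7 at D21, while D42 had 4 and 6. Across the 4 ages, 16 genes were called higher in the ileum and 9 higher in the mid-jejunum at 1 or more ages. IL20RA was in both groups, and 29 genes were called at no age. The share of all genes called at 1 or more ages was not counted, so these counts are a description.

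**Figure D2:**
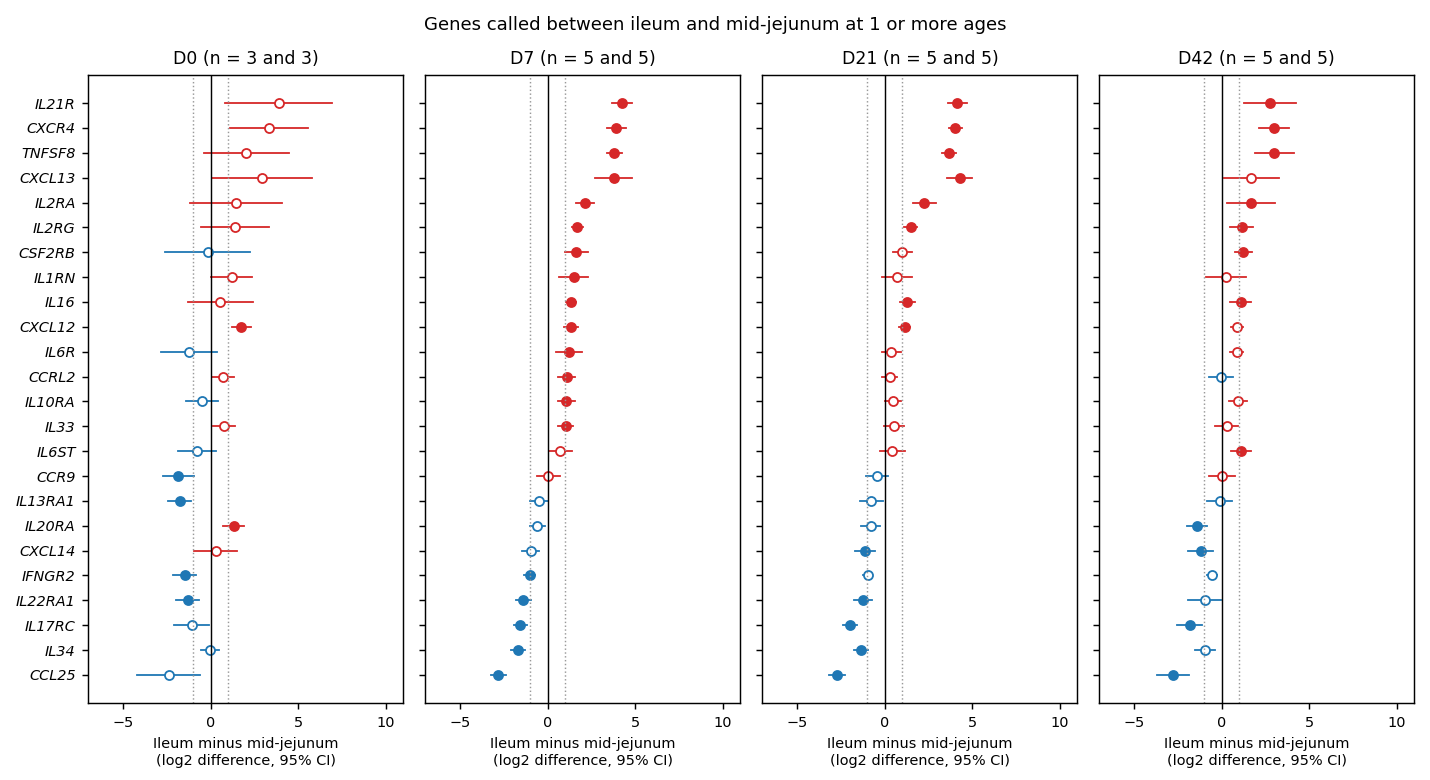
Difference in log2(CPM + 1), ileum minus mid-jejunum, with its 95% confidence interval for the genes called at 1 or more ages, in 1 panel per age (3 libraries per region at D0, 5 at D7, D21 and D42). Filled points were called, open points were not, red points lie above 0, blue points lie below 0, and dotted lines mark a fold change of 2. IL21R, CXCR4 and TNFSF8 lay farthest to the right at D7 and CCL25 farthest to the left.

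CXCR4, the receptor of CXCL12 that retains B cells and haematopoietic cells in their niches, was at 155, 277, 210, 261 and 329 CPM in the ileum and at 22, 20, 9, 15 and 12 CPM in the mid-jejunum at D7. The lowest ileum library was several times the highest jejunal one, and the difference was 3.92 ± 0.25 (SE), FDR = 8.80e-08. At D21 the difference was 4.02 ± 0.17 (SE), FDR = 1.34e-08, with no overlap of the regions. At D42 the ileum held 82, 347, 261, 250 and 209 CPM, in animal order, and the mid-jejunum 45, 17, 29, 19 and 25 CPM. The low ileum value belongs to the D42 animal 1 library, and the difference was 2.98 ± 0.38 (SE), FDR = 4.10e-04 with it and 3.32, FDR = 8.59e-06 without it.

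IL21R, the receptor of the follicular helper cytokine IL21, was at 116, 164, 141, 193 and 240 CPM in the ileum and at 10, 14, 5, 5 and 8 CPM in the mid-jejunum at D7. The regions did not overlap, with a difference of 4.24 ± 0.27 (SE), FDR = 8.80e-08 at D7 and 4.14 ± 0.24 (SE), FDR = 7.95e-08 at D21. At D42 the ileum libraries were at 15, 240, 187, 182 and 125 CPM and the mid-jejunum libraries at 31, 9, 13, 15 and 15 CPM. Here the first ileum library fell within the jejunal range, and the difference of 2.77 (FDR = 0.00716) became 3.46, FDR = 1.31e-05 without it.

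TNFSF8 (CD30 ligand), a tumour necrosis factor family member on activated lymphocytes, was at 37, 57, 55, 64 and 77 CPM in the ileum and 2, 3, 3, 4 and 4 CPM in the mid-jejunum at D7. Its differences were 3.80 ± 0.20 (SE), FDR = 3.18e-08 at D7, 3.65 ± 0.18 (SE), FDR = 3.15e-08 at D21 and 2.99 ± 0.51 (SE), FDR = 0.00121 at D42 (3.46, FDR = 1.70e-05 without the D42 animal 1 ileum library). No library of one region reached the other at these ages. CXCL13 was at 96, 204, 147, 370 and 106 CPM in the ileum and at 23, 29, 8, 4 and 7 CPM in the mid-jejunum at D7. Its difference was 3.76 ± 0.49 (SE), FDR = 3.08e-05 at D7 and 4.28 ± 0.33 (SE), FDR = 5.16e-07 at D21, without overlap. At D42 it was not called, with a difference of 1.69 ± 0.70 (SE), FDR = 0.0719, and it was called without the D42 animal 1 ileum library, at 2.05, FDR = 0.0248. The mid-jejunum held 94, 7, 9, 23 and 32 CPM of CXCL13 at D42. Its high library, animal 1, also had the highest B cell marker sum of the mid-jejunum, 319 against 81 to 179 in the other 4 of that age.

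**Figure D3:**
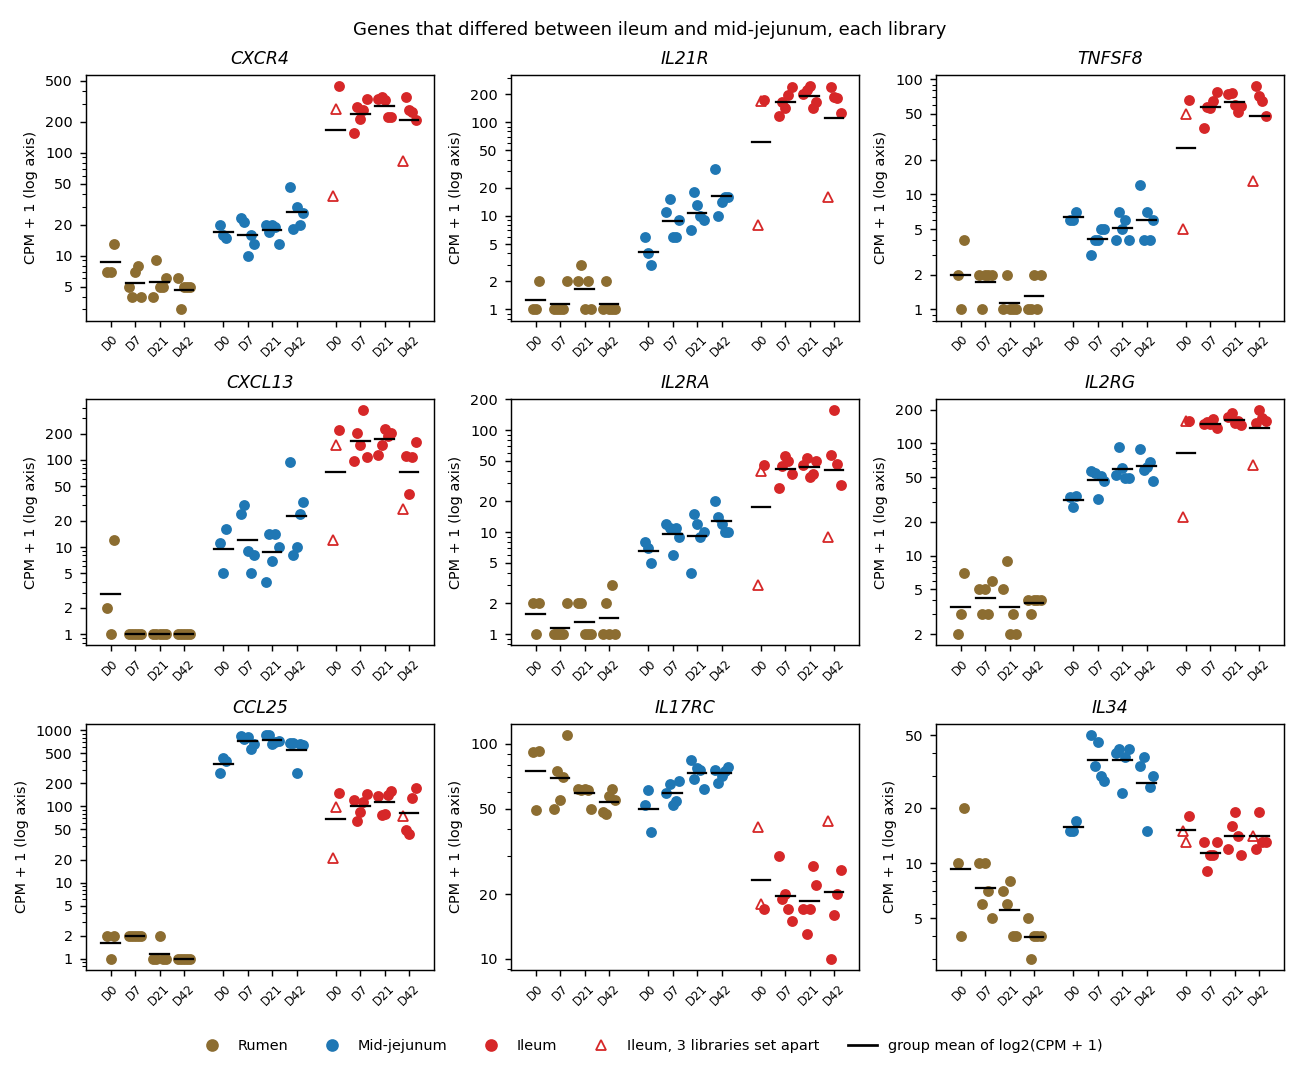
CPM + 1 on a log axis in each library (points) for 9 genes in the rumen (brown), mid-jejunum (blue) and ileum (red) at D0, D7, D21 and D42. Black bars are group means of log2(CPM + 1), and open triangles are the 3 ileum libraries that stand apart. At D7 and D21 every ileum library lay above every jejunal one for CXCR4, IL21R, TNFSF8, CXCL13, IL2RA and IL2RG, and below for CCL25, IL17RC and IL34.

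The common gamma chain family followed in part. IL2RA, the inducible chain of the IL2 receptor, was at 26, 43, 55, 49 and 36 CPM in the ileum and 11, 10, 5, 10 and 8 CPM in the mid-jejunum at D7, a difference of 2.12 ± 0.23 (SE), FDR = 6.14e-06. At D42 its regions overlapped, through the D42 animal 1 ileum library at 8 CPM, and its call, at FDR = 0.0466, was lost without any one of animals 2 to 5, with the calf as a block, with median-ratio scaling (FDR = 0.0741) and with no filter on low values (FDR = 0.0536). Without the D42 animal 1 ileum library alone the difference was 2.20, FDR = 0.00127. IL2RG was at 147, 153, 149, 163 and 135 CPM in the ileum and 56, 53, 31, 50 and 45 CPM in the mid-jejunum, a difference of 1.67 ± 0.15 (SE), FDR = 1.14e-06. IL2RB, IL4R and IL7R, the other chains of this family, were not called at any age with all libraries, with differences at D7 of 0.83, 0.62 and 0.91. IL2RB was called at D42 without the D42 animal 1 ileum library (1.01, FDR = 0.0117), and IL7R at D7 without animal 4 or 5 and at D42 without animal 2. IL16, a chemoattractant for CD4+ cells, was at 74, 72, 71, 85 and 86 CPM in the ileum and 36, 33, 23, 36 and 26 CPM in the mid-jejunum at D7, a difference of 1.32 ± 0.14 (SE), FDR = 5.07e-06. At D42 the call of IL16 was lost without animal 2, 4 or 5 and with median-ratio scaling, at a difference of 0.90 (FDR = 0.0238) under the latter. Without the D42 animal 1 ileum library it was 1.30, FDR = 2.97e-04.

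CXCL12, the ligand of CXCR4, was at 174, 165, 185, 172 and 186 CPM in the ileum and 59, 86, 44, 88 and 89 CPM in the mid-jejunum at D7. It was called at D0, D7 and D21, with 1.31 ± 0.18 (SE), FDR = 4.60e-05 at D7. CSF2RB, the shared beta chain of the GM-CSF, IL3 and IL5 receptors, was at 80, 93, 58, 73 and 43 CPM in the ileum and 20, 15, 11, 33 and 37 CPM in the mid-jejunum. It was called at D7 (1.63 ± 0.31 (SE), FDR = 5.70e-04) and D42 (1.24 ± 0.21 (SE), FDR = 0.00114, and 1.37, FDR = 1.18e-04 without the D42 animal 1 ileum library). IL6R, the ligand-binding chain for IL6, was called at D7 at 1.20 ± 0.34 (SE), FDR = 0.00844. Its regions overlapped, and the difference fell under a fold change of 2 with median-ratio scaling (0.93) and without animal 3 (0.98). Without animal 1 its FDR was 0.0512. CCRL2, IL33, IL10RA and IL1RN were called higher in the ileum at D7 alone of the 4 ages, and IL6ST at D42 alone, a call that rests on the D42 animal 1 ileum library. Whether the ages differed in this was not tested.

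B cell markers were higher in the ileum beside all of these genes, as were the 6 markers of proliferating cells, with sums of 152 to 299 in the mid-jejunum and 667 to 1280 in 15 ileum libraries. In the D0 animal 1 and D42 animal 1 ileum libraries proliferation markers summed to 166 and 183 and B cell markers to 60 and 333. T cell markers summed to between 133 and 424 in the mid-jejunum and between 118 and 303 in those 15 ileum libraries. The part of these cell types in the differences was not tested.

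CCL25, made by small intestinal epithelium, was the member with the lowest difference at D7, D21 and D42. It was at 836, 772, 812, 565 and 666 CPM in the mid-jejunum and 119, 63, 84, 113 and 145 CPM in the ileum at D7. The difference was -2.83 ± 0.20 (SE), FDR = 2.38e-07 at D7, -2.74 ± 0.21 (SE), FDR = 4.93e-07 at D21 and -2.77 ± 0.41 (SE), FDR = 6.79e-04 at D42. Every jejunal library lay above every ileum library at these ages, including jejunal animal 3 of D42, which was at 272 CPM beside 643 to 684 CPM in the other 4. IL17RC, a chain of the receptor for IL17A and IL17F, was at 58, 64, 51, 53 and 66 CPM in the mid-jejunum and 29, 18, 19, 16 and 14 CPM in the ileum at D7. Its differences were -1.59 ± 0.17 (SE), FDR = 6.10e-06 at D7, -1.98 ± 0.18 (SE), FDR = 2.04e-06 at D21 and -1.83 ± 0.32 (SE), FDR = 0.00144 at D42, with no overlap. Without the D42 animal 1 ileum library the D42 differences were -2.11, FDR = 4.14e-05 for IL17RC and -2.73, FDR = 4.59e-04 for CCL25. IL17RA, the chain it pairs with, was not called, with a difference of -0.21 at D7.

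IL34, a second ligand of the CSF1 receptor, was at 49, 33, 45, 29 and 27 CPM in the mid-jejunum and 12, 8, 10, 10 and 12 CPM in the ileum at D7. This gene was called at D7 (-1.70 ± 0.18 (SE), FDR = 6.24e-06) and D21 (-1.37 ± 0.19 (SE), FDR = 7.22e-05). IL22RA1, the epithelial chain of the IL22 receptor, showed 192, 128, 116, 186 and 143 CPM in the mid-jejunum and 88, 54, 53, 51 and 43 CPM in the ileum at D7, a difference of -1.40 ± 0.20 (SE), FDR = 4.92e-05. At D21 it was -1.25 ± 0.25 (SE), FDR = 8.69e-04, and at D42 it was not called at -0.98 and was called without the D42 animal 1 ileum library, at -1.14, FDR = 0.0416. IFNGR2, the signalling chain of the interferon gamma receptor, was called at D0 and D7, with -1.05 ± 0.15 (SE), FDR = 6.73e-05 at D7. CXCL14, an epithelial chemokine, was called at D21 (-1.12 ± 0.26 (SE), FDR = 0.00257) and at D42 (-1.21 ± 0.32 (SE), FDR = 0.0115, and -1.41, FDR = 0.00175 without the D42 animal 1 ileum library). The D42 call was lost without animal 2 (-0.94, FDR = 0.032) and without animal 3 (FDR = 0.0534). IL20RA, a chain of the receptors for IL19, IL20 and IL24, was higher in the mid-jejunum at D42, at -1.42 ± 0.26 (SE), FDR = 0.00186, from jejunal values of 5, 12, 7, 12 and 11 CPM and ileal values of 2, 2, 4, 3 and 3 CPM. Without the D42 animal 1 ileum library it was -1.34, FDR = 0.00167. Enterocyte marker sums were higher in the mid-jejunum beside these genes, and their part in the differences was not tested.

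At D0, before any feed, 6 of 53 genes were called (2 higher and 4 lower in the ileum), with 8.87% of all genes (2.83% and 6.04%). CXCL12 and IL20RA were higher in the ileum, and CCR9, IL13RA1, IFNGR2 and IL22RA1 in the mid-jejunum. Over all ages IL20RA lay at 1 to 12 CPM in the mid-jejunum and 2 to 5 CPM in the ileum, close to the smallest step of 1 CPM. CXCL12 was at 164, 270 and 213 CPM in the ileum and 66, 56 and 66 CPM in the mid-jejunum, a difference of 1.74 ± 0.22 (SE), FDR = 0.0181. IL13RA1, which binds IL13, was at 20, 14 and 24 CPM in the ileum and 64, 59 and 82 CPM in the mid-jejunum, a difference of -1.79 ± 0.26 (SE), FDR = 0.0225. CCR9, the receptor of CCL25, was at 3, 4 and 7 and 25, 14 and 19 CPM, a difference of -1.87 ± 0.36 (SE), FDR = 0.037. The regions did not overlap for any of these 3 genes.

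These D0 calls depended on single calves. With the calf as a block 0 of 53 genes were called, with 0 of all genes tested higher and 2 lower. Without animal 2 or animal 3 the count was 0 as well, with 0 of all genes. Without animal 1 it was 16, with 1750 of all genes higher and 902 lower. The counts of these genes thus moved with those of all genes. CXCR4, IL21R, TNFSF8, CXCL13, IL2RA, IL2RG and IL16 were among the 16. Their D0 animal 1 library was low, as for IL21R at 7, 167 and 171 CPM and for CXCR4 at 37, 268 and 447 CPM, in animal order. Without the 3 ileum libraries 1 ileum library is left at D0, so only differences are given here. They were 1.75 for CXCL12, 1.00 for IL20RA, -1.31 for CCR9, -1.46 for IL13RA1, -1.08 for IFNGR2 and -1.62 for IL22RA1.

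The rumen was compared with each intestinal region at the same ages. Most of these genes were higher in the intestine, among them the T cell chemokines CCL5 and CXCL16, the macrophage receptor CSF1R, and CCL25 with its receptor CCR9. IL1RN, the IL1 receptor antagonist, and IL20RA were far higher in the rumen. Because the list holds genes detected in the intestine, more genes higher there than in the rumen follow from the choice, and the counts below are a description.

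Between the mid-jejunum and the rumen, 20 of 53 genes were called at D0 (18 higher in the mid-jejunum and 2 higher in the rumen), with 20.1% of 14174 genes tested (12.8% and 7.38%). The count was 31 at D7 (28 and 3), with 32.2% of all genes (17.6% and 14.6%). It was 36 at D21 (32 and 4), with 32.6% (21.9% and 10.7%), and 37 at D42 (34 and 3), with 33.5% (23.5% and 10%). Between the ileum and the rumen 8 genes were called at D0 (7 and 1), with 5.53% of 14244 genes (2.93% and 2.6%). The count was 33 at D7 (29 and 4), with 39.5% (25.2% and 14.3%). It was 44 at D21 (37 and 7), with 43.9% (30.1% and 13.8%), and 41 at D42 (37 and 4), with 42.9% (32.3% and 10.6%) of all genes. At D7, D21 and D42 alike, 27 genes were called higher in the mid-jejunum than in the rumen and 29 higher in the ileum. The share of all genes called at each of these ages alike was not counted. All 41 calls between the ileum and the rumen at D42 were kept without the D42 animal 1 ileum library. Both comparisons use the same rumen libraries.

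The D0 counts were less stable. Between the mid-jejunum and the rumen the count was 7 without animal 1, 23 without animal 2 and 8 without animal 3. Of all genes, 534, 1904 and 825 were then higher and 218, 2068 and 331 lower. Between the ileum and the rumen the count was 4, 0 and 0, with 168, 0 and 1 of all genes higher and 63, 0 and 6 lower. Rumen animal 2 of D0 differed from the other 2 calves, with fibroblast markers summing to 4790 against 44706 and 46932 and T cell markers to 194 against 11 and 14.

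CCR9 was listed at 0 in all 18 rumen libraries, and in the intestine it lay between 3 and 28 CPM. CCL25 was at 0 or 1 CPM in each rumen library and between 20 and 864 CPM in the intestine. CXCL13 was listed at 0 in the 15 rumen libraries of D7, D21 and D42, and IL21R, TNFSF8 and IL7 were at 3 CPM or less in each of the 18. No fold change is given for these genes, because 1 CPM is the smallest step of the values. IL2RB was at 2 CPM or less in the rumen except in 1 library, D21 animal 5, at 23 CPM.

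Among genes also detected in the rumen, CCL5, which attracts T cells, was at 2, 2, 3, 3 and 0 CPM in the rumen, 40, 88, 51, 69 and 31 CPM in the mid-jejunum and 37, 40, 24, 60 and 36 CPM in the ileum at D21. The difference was 4.30 ± 0.39 (SE), FDR = 1.13e-06 for the mid-jejunum and 3.84 ± 0.37 (SE), FDR = 9.87e-07 for the ileum, with no overlap. CXCL6, a neutrophil attractant, was at 2, 4, 2, 1 and 2 CPM in the rumen, 64, 63, 53, 41 and 28 CPM in the mid-jejunum and 7, 26, 96, 53 and 35 CPM in the ileum at D42. Its differences were 3.99 ± 0.27 (SE), FDR = 9.37e-08 for the mid-jejunum and 3.44 ± 0.56 (SE), FDR = 2.51e-04 for the ileum (3.95, FDR = 2.69e-06 without its low library, animal 1). IL16 was at 1, 1, 1, 3 and 2 CPM in the rumen at D7, below each intestinal library given above for that age, with differences of 3.65 for the mid-jejunum and 4.97 for the ileum. IL2RG was at 4, 2, 4, 2 and 5 CPM in the rumen at D7, with differences of 3.48 and 5.15. The rumen values of CCL5, CXCL6, IL16 and IL2RG lay within a few steps of 1 CPM, so the sizes of these differences are uncertain.

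CSF1R, the receptor that macrophages need for survival, was at 13, 15, 20, 12 and 12 CPM in the rumen, 167, 146, 150, 125 and 97 CPM in the mid-jejunum and 180, 189, 257, 241 and 312 CPM in the ileum at D42. The differences were 3.16 ± 0.17 (SE), FDR = 1.21e-08 and 3.94 ± 0.19 (SE), FDR = 3.14e-08, and the rumen overlapped with neither region. The 7 macrophage markers summed to between 65 and 451 in the rumen, between 448 and 1263 in the mid-jejunum and between 452 and 1623 in the ileum, and T cell markers to between 11 and 194 in the rumen. The part of these cells in the differences was not tested.

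IL1RN was at 126, 147, 166, 161 and 151 CPM in the rumen, 7, 7, 18, 4 and 6 CPM in the mid-jejunum and 11, 5, 34, 6 and 5 CPM in the ileum at D42. The difference was -4.16 ± 0.28 (SE), FDR = 7.65e-08 for the mid-jejunum and -3.90 ± 0.42 (SE), FDR = 1.55e-05 for the ileum, and at D7, D21 and D42 the rumen did not overlap with either. At D0 the rumen held 51, 305 and 26 CPM, a wide spread, with the high value in animal 2. IL20RA was at 86, 93, 92, 89 and 51 CPM in the rumen at D42, and its difference was -3.03 ± 0.24 (SE), FDR = 3.92e-07 for the mid-jejunum and -4.45 ± 0.22 (SE), FDR = 4.12e-08 for the ileum. It was called higher in the rumen in all 8 comparisons, but at D0 the call against the ileum was lost without the 3 ileum libraries (-4.68, FDR = 0.052) and without animal 1, 2 or 3 (FDR from 0.0563 to 0.123). IL1R1, the signalling receptor that IL1RN blocks, was not called in any comparison of regions with all libraries, although it was called at D7 without animal 5 (1.07) and at D42 without animal 2 (1.01) between the ileum and the mid-jejunum, and at D0 against the rumen with all groups in 1 fit (-1.12 and -1.38) and in the mid-jejunum without animal 2 (-1.64).

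**Figure D4:**
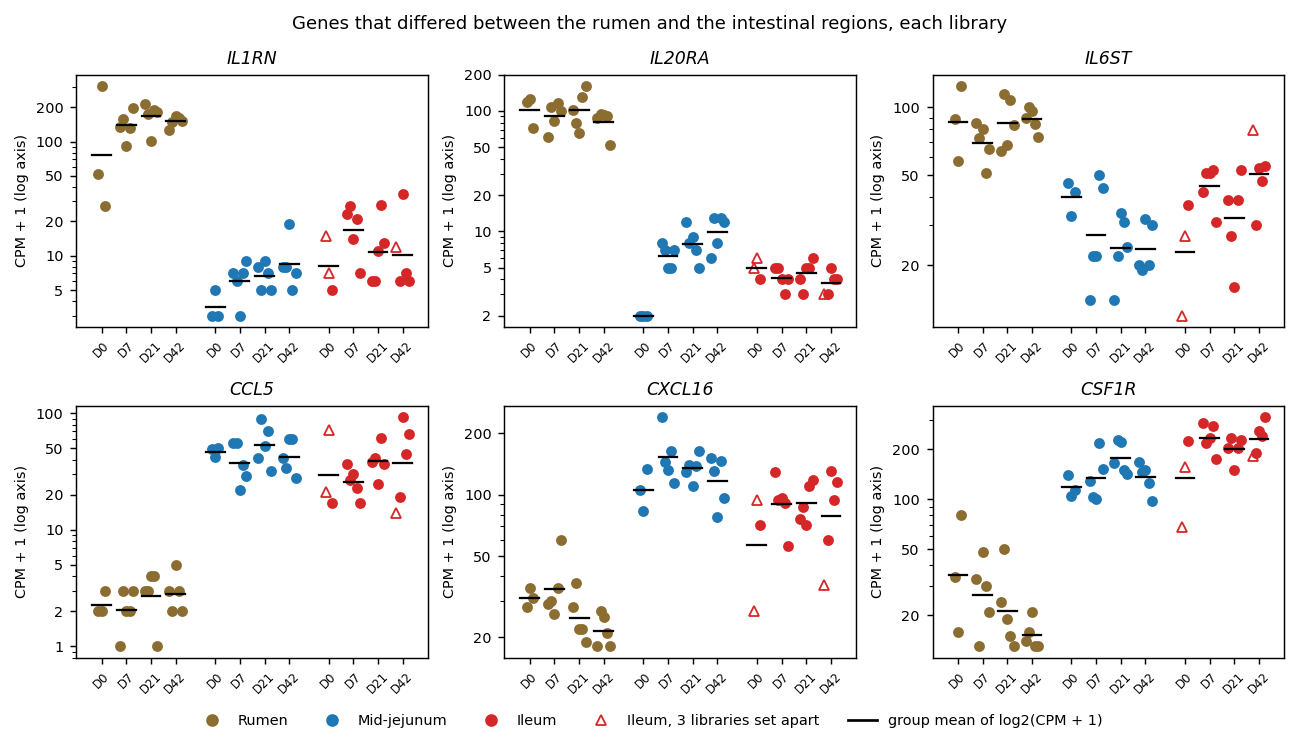
CPM + 1 on a log axis in each library (points) for IL1RN, IL20RA, IL6ST, CCL5, CXCL16 and CSF1R in the rumen (brown), mid-jejunum (blue) and ileum (red) at 4 ages, with group means of log2(CPM + 1) as black bars and the 3 ileum libraries that stand apart as open triangles. IL20RA was at 51 to 160 CPM in the rumen and at 1 to 12 CPM in the intestine, whereas CCL5 was at 0 to 4 CPM in the rumen and at 13 to 92 CPM in the intestine.

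IL6ST (gp130) was at 84, 72, 79, 50 and 64 CPM in the rumen and 13, 21, 21, 49 and 43 CPM in the mid-jejunum at D7, and was called lower in the mid-jejunum at D7, D21 and D42, with -1.90 ± 0.17 (SE), FDR = 8.85e-07 at D42. Against the ileum it was called at D21 (-1.40 ± 0.29 (SE), FDR = 7.67e-04), and at D0 and D42 with median-ratio scaling. IL6R, its partner, went the other way at these 3 ages, with 1.67 ± 0.16 (SE), FDR = 1.74e-06 for the mid-jejunum and 2.51 ± 0.17 (SE), FDR = 4.30e-07 for the ileum at D42. At D7 the jejunal call of IL6R was lost without animal 4 (0.69, FDR = 0.111), as it was without animal 1 or 2. CXCL14 was at 198, 224, 136, 237 and 200 CPM in the rumen and 72, 56, 53, 68 and 88 CPM in the ileum at D21, a difference of -1.55 ± 0.17 (SE), FDR = 4.08e-06. The D42 difference of CXCL14 was -1.01, and the call was lost without animal 2 (-0.65) and without animal 3 (-0.87). IL17RC was lower in the ileum than in the rumen at D7, D21 and D42, with -1.82 ± 0.23 (SE), FDR = 1.58e-05 at D7, and was not called between the mid-jejunum and the rumen except at D0 without animal 2 (-1.04, FDR = 0.032). CX3CL1, a membrane-bound chemokine, was called lower in both intestinal regions at D21, at -1.09 and -1.25. Stratified epithelium markers summed to between 513 and 1165 in the rumen, 192 and 590 in the mid-jejunum and 72 and 378 in the ileum, and their part was not tested.

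Adjacent ages were compared within each region. In the mid-jejunum, chemokines (CXCL6, CCL8, CCL25) and the interleukin IL34 rose in the first week, and the receptor chain IL6R fell. Between D7 and D0, 8 of 53 genes were called (7 higher and 1 lower at D7), with 9.5% of 13465 genes (3.94% and 5.56% higher and lower).

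CXCL6 was at 13, 13 and 12 CPM at D0 and 43, 34, 35, 44 and 40 CPM at D7, a difference of 1.55 ± 0.13 (SE), FDR = 3.52e-05. CCL8, a monocyte attractant, was at 4, 1 and 2 CPM at D0 and 15, 11, 11, 17 and 38 CPM at D7, a difference of 2.49 ± 0.41 (SE), FDR = 0.0016. The ages did not overlap for either chemokine. With all groups in 1 fit the calls of CXCL6 (FDR = 0.0516), CCL25 (FDR = 0.0803) and IL21R (FDR = 0.267) were lost. CCL25 was at 276, 426 and 393 CPM at D0 and 836, 772, 812, 565 and 666 CPM at D7, a difference of 1.01 ± 0.18 (SE), FDR = 0.00319. The ages did not overlap, but the difference lay close to a fold change of 2 and fell under it without D0 animal 1 (0.82) and without D7 animal 1, 2 or 3 (0.96, 0.98 and 0.97). IL34 was at 14, 14 and 16 CPM at D0, below each D7 value given above, a difference of 1.23 ± 0.20 (SE), FDR = 0.00176. IL20RA was at 1, 1 and 1 CPM at D0 and 7, 6, 4, 4 and 6 CPM at D7, a difference of 1.65 ± 0.22 (SE), FDR = 4.82e-04. Its D0 values lay at the smallest step of 1 CPM, so the size of this change is uncertain. IL18BP, a soluble antagonist, was at 7, 10 and 3 CPM at D0 and 20, 21, 13, 21 and 19 CPM at D7, a difference of 1.47 ± 0.30 (SE), FDR = 0.00572.

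The ages overlapped for the other 2 called genes. IL21R was at 5, 3 and 2 CPM at D0 and rose by 1.08 ± 0.34 (SE), FDR = 0.0412. IL6R was at 58, 40 and 54 CPM at D0 and 12, 14, 9, 44 and 25 CPM at D7, a difference of -1.45 ± 0.42 (SE), FDR = 0.0301. Both calls were lost without several single libraries: IL21R without D0 animal 2 or 3 or D7 animal 1, 2 or 5, with FDR from 0.0607 to 0.178, and IL6R without any D0 animal or D7 animal 1, 2 or 3, with FDR from 0.057 to 0.113. The count of called genes was 5 without D7 animal 1 and 5 without D7 animal 2. B cell markers summed to 72, 29 and 34 at D0 and to 105, 120, 40, 54 and 50 at D7 in these libraries.

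**Figure D5:**
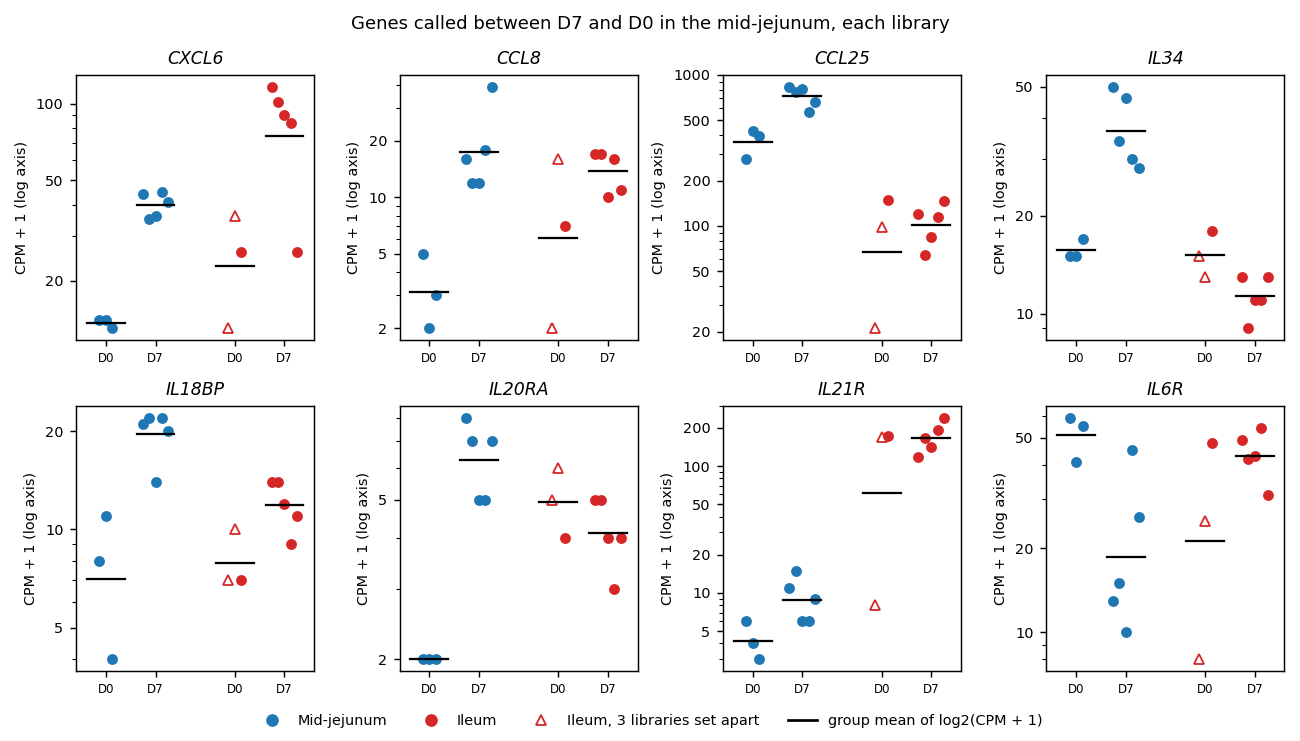
CPM + 1 on a log axis in each library (points) at D0 and D7 in the mid-jejunum (blue) and the ileum (red) for the 8 genes called between D7 and D0 in the mid-jejunum. Black bars are group means of log2(CPM + 1), and open triangles are ileum libraries of D0 animals 1 and 2, which stand apart. CXCL6 was at 12 to 13 CPM at D0 and at 34 to 44 CPM at D7 in the mid-jejunum.

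In the ileum 0 of 53 genes were called by limma between D7 and D0, with 0% of 13457 genes. At an unadjusted p < 0.05, 14 of the 53 passed, with 2125 of all genes. A fit over all 12 groups called 6 of the 53, with 478 of all genes higher and 79 lower. CXCL6 was at 12, 35 and 25 CPM at D0 and 116, 101, 89, 83 and 25 CPM at D7 there, a difference of 1.70 ± 0.53 (SE), FDR = 0.309. Whether this first-week change differed between regions was tested directly. The difference passed FDR < 0.05 for 6 of 53 genes between the ileum and the mid-jejunum, with 12.2% of 13942 genes. The change was lower in the ileum for IL34, at -1.65 ± 0.29 (SE), FDR = 0.00683, and for IL20RA, at -1.91 ± 0.32 (SE), FDR = 0.0055. The change was higher in the ileum for IL6R (2.47 ± 0.71 (SE), FDR = 0.0381), CCR9 (1.88 ± 0.51 (SE), FDR = 0.0314), IL10RA (1.57 ± 0.41 (SE), FDR = 0.0288) and IL13RA1 (1.28 ± 0.39 (SE), FDR = 0.045). Without the 3 ileum libraries only IL34 passed (-1.90, FDR = 0.0144), and with the calf as a block 3 genes did. Between the mid-jejunum and the rumen, 1 gene passed, with 3.6% of genes, and this was IL20RA at 1.82 ± 0.35 (SE), FDR = 0.00801, which did not pass with the calf as a block (FDR = 0.0529). Between the ileum and the rumen 0 genes passed in limma, with 0.0211% of genes and 10 genes at an unadjusted p < 0.05, and 0 in each of the 4 alternatives run.

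In the rumen, 38 genes were tested between ages, and 0 were called by limma in any of the 3 comparisons, with 0%, 0.062% and 0% of 12900 genes for D7, D21 and D42 against the age before. At an unadjusted p < 0.05 the counts were 1, 6 and 1. Without rumen D0 animal 2 the D7 count was 4, with 703 of the 12900 genes called higher and 1262 lower. IL1RN (1.89, FDR = 0.00504) and IL22RA1 (2.90, FDR = 0.00615) were higher and IL6R and IL11RA lower at D7 in that limma fit. In a fit over all groups the count was 2 (CCL2 and IL22RA1), with 190 of all genes higher and 96 lower. After the first week 0 of 53 genes were called by limma in the mid-jejunum or the ileum, with 0% of genes in each of the 4 comparisons, and 0 of the 53 in each alternative run. At an unadjusted p < 0.05, 6 genes passed at D21 and 6 at D42 in the mid-jejunum, and 6 and 1 in the ileum. Single libraries still varied, as ileum animal 3 of D42, which was at 160 CPM for CCL2 beside 21 to 27 CPM in the other 4, and at 155 CPM for IL2RA beside 8 to 56 CPM. Its macrophage marker sum of 1623 was the highest of the ileum.

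Ligands and receptors of a pair did not always differ alike. CCL25 was higher in the mid-jejunum than in the ileum at D7, with no call for its receptor CCR9 at 0.01 (FDR = 0.975). CXCL12 and CXCR4 were both higher in the ileum at D7 and D21, by 1.13 and 4.02 at D21. CXCL16, a membrane-bound chemokine, and its receptor CXCR6 were both higher in the intestine than in the rumen, with 2.45 for CXCL16 in the mid-jejunum at D21. CXCR6 was at 0 to 4 CPM in the rumen and at 6 to 50 CPM in the intestine. Neither was called between the ileum and the mid-jejunum, at -0.56 and -0.19 at D42. IL7, which keeps lymphocytes alive, was at 0 to 1 CPM in the rumen, 3 to 9 CPM in the mid-jejunum and 2 to 7 CPM in the ileum. IL7R was at 0 to 1, 4 to 17 and 1 to 29 CPM. CXCR6, IL7 and IL7R were not detected in the rumen and entered the test only through the intestine. Their higher intestinal values thus follow in part from the choice. IL34 differed between the ileum and the mid-jejunum, whereas CSF1 and the shared receptor CSF1R were not called there with all libraries, at 0.40 and 0.80 at D7. IL27 was at 0 or 1 CPM in each rumen library, yet its receptor chain IL27RA was at 25, 35, 36, 28 and 30 CPM there at D42, beside 67, 54, 65, 61 and 51 CPM in the mid-jejunum.

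Several of these genes are neighbours in the RefSeq annotation of assembly ARS-UCD2.0, which matched 52 of the 53 symbols. IFNGR2, IFNAR1, IL10RB and IFNAR2 lie next to each other, yet at D7 their ileum minus mid-jejunum differences were -1.05, 0.70, -0.16 and 0.72, so they differed in sign. IFNAR1 and IFNAR2 are the chains of the type I interferon receptor and IL10RB is shared by IL10 family receptors. CXCR6 and CCR9, also neighbours, were both near 0 in the rumen. CCL8, CCL11 and CCL2 form a further such run, and at D42 CCL11 and CCL2 differed from the rumen by 1.91 and 2.02 in the mid-jejunum, while CCL8 was at 0 to 2 CPM in the rumen and at 1 to 38 CPM in the mid-jejunum over all ages.

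Other genes of the same pathways were counted by the same fit. Of 15 further cytokine and receptor genes, LTB, CD40 and CD27 were higher in the ileum than in the mid-jejunum and ACVR1B lower at D7 and at D21, and LTB and CD27 were higher at D42. Of 16 genes of chemokine receptor signalling, 7 were higher in the ileum at D7, 5 at D21 and 7 at D42, with GNAI2, DOCK2, ELMO1, VAV1 and PRKCB among them each time, and 1, 2 and 1 were lower. Over all genes tested, 17.5%, 14.7% and 13.3% were higher in the ileum. With median-ratio scaling 6, 5 and 6 of the 16 were higher and 2, 2 and 1 lower. Of all genes, 1703, 1689 and 1357 were then higher and 1927, 2088 and 1465 lower. The list of 14 interferon-induced genes, like the others, was chosen with earlier results of these data known. Of the 14, 13 rose in the mid-jejunum between D0 and D7, beside 3.94% of all genes. Their median difference was 2.47 beside -0.10 over all genes. In the ileum and the rumen 0 of the 14 were called, with medians of 1.29 and 1.14, where 0% of all genes tested were called. The difference in this change between the ileum and the mid-jejunum passed FDR < 0.05 for 6 of the 14 genes (4 without the 3 ileum libraries), with 12.2% of all genes. Between the mid-jejunum and the rumen it passed for 2 of the 14, with 3.6% of all genes. The interferon receptor chains themselves were not called between these ages in the mid-jejunum without further scaling. Their differences were -0.46 for IFNAR1, 0.89 for IFNAR2, 0.31 for IFNGR1 and -0.34 for IFNGR2. With median-ratio scaling IFNAR2 was called higher at D7, at 1.01 (limma, FDR = 4.30e-04).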

How the data were processed

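RNA-Seq libraries of 18 rumen, 18 mid-jejunum and 18 ileum samples of Holstein calves were used. Per the labels and methods, the authors processed images with CASAVA 1.8, used TopHat2 2.0.10 for alignment against UMD 3.1 and counted reads on Ensembl genes with HTSeq. The deposited values are a score, namely CPM rounded to whole numbers, so depth per library is unknown and values move in steps of 1 CPM. Groups came from the sample labels. The test was limma 3.58.1 (R 4.3.3, lmFit, eBayes with trend) on log2(CPM + 1), on the 2 groups compared only, over genes with CPM > 1 in at least 50% of the 18 libraries of either region, with Benjamini-Hochberg adjustment (FDR). Calls needed FDR < 0.05 and a fold change > 2. A pseudocount of 1 understates the change of low genes. The fit was tested on simulated data.

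Equal animal numbers at 1 age were read as 1 calf, as the study names its samples. Deviations of such libraries from their group means correlated by -0.13 to 0.17 on average over the 3 pairs of regions at each age. The genes and lists were chosen with earlier results of these data known. Named genes were the 4 largest called differences in each direction per comparison, the most often called gene of each role group and 7 fixed ligand and receptor sets. Others are named with values only, chosen after their values were seen where they are singled out. Alternatives were a pseudocount of 0.1, no filter on low values, all 12 groups in 1 fit, the calf as a block, median-ratio scaling, and leaving out each calf or the 3 ileum libraries. In comparisons of ages the block was the animal number, which stands for different calves. Genes with near-identical copies may share reads, and overlapping genes were not separated here. Sequences were not used here. 1 gene of a pathway list is not reported here.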

Additional observations from a re-analysis of the deposited data

Results flagged for a closer look

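Single libraries far from the other 4 of their group were looked for in 142 sets of values of the named genes, with Dixon's ratio. Here 23 were found. The ratio flags about 1 in 20 groups of continuous normal values by chance. That rate does not hold for values in steps of 1 CPM or for sets that share libraries, so the 23 cannot be set against it. In 8 of them a rumen value moved by a few CPM: CCL25 at 1 CPM (D21 animal 3), CXCR6 at 1 CPM (D7 animal 5), IL21R at 1 CPM (D7 animal 5 and D42 animal 2) and TNFSF8 at 1 CPM (D21 animal 2) beside 0 in the others, TNFSF8 at 0 CPM (D7 animal 2) beside 1, CSF2RB at 4 CPM (D21 animal 2) beside 0 to 1, and CXCL6 at 8 CPM (D21 animal 2) beside 1 to 3.

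Further rumen values were IL6R at 14 CPM in D21 animal 2 beside 6 to 7, IL22RA1 at 25 CPM in D7 animal 5 beside 6 to 9, IL17RC at 49 CPM in D21 animal 5 beside 60 to 61, and IL20RA at 51 CPM in D42 animal 5 beside 86 to 93. In the mid-jejunum at D42, CXCL13 at 94 CPM and IL21R at 31 CPM were high in animal 1 beside 7 to 32 and 9 to 15, and in animal 3 CCL25 was low at 272 CPM beside 643 to 684 and IL1RN high at 18 CPM beside 4 to 7. In the mid-jejunum at D21, IL2RG was at 92 CPM in animal 2 beside 48 to 59, and IL34 at 23 CPM in animal 3 beside 37 to 41. At D7, CCL8 was at 38 CPM in animal 5 beside 11 to 17, and IL18BP at 13 CPM in animal 3 beside 19 to 21. In the ileum, IL22RA1 was at 88 CPM in D7 animal 1 beside 43 to 54, IL1RN at 34 CPM in D42 animal 3 beside 5 to 11, and IL16 at 42 CPM in D42 animal 1, one of the 3 libraries that stand apart, beside 87 to 101.

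For 6 genes the change from D0 to D7 differed between the ileum and the mid-jejunum (limma interaction, ileum minus mid-jejunum): IL6R by 2.47, CCR9 by 1.88, IL10RA by 1.57, IL13RA1 by 1.28, IL34 by -1.65 and IL20RA by -1.91. The share, 11.3% of the 53 genes, was near the 12.2% of 13942 genes tested. IL6R, IL10RA and IL13RA1 did not pass with the calf as a block. Leaving out the 3 ileum libraries leaves 1 ileum library at D0. The differences were then 1.29 for IL6R, 1.32 for CCR9, 1.08 for IL10RA, 0.95 for IL13RA1 and -1.61 for IL20RA. Between the mid-jejunum and the rumen the change differed for IL20RA, by 1.82, with 3.6% of 14174 genes. It did not pass with the calf as a block (FDR = 0.0529).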

How the results depend on the processing

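At D7, D21 and D42 the counts of called genes between regions stayed within 1.5 times under each alternative run, and without each calf in turn they ranged from 16 to 23, 12 to 16 and 9 to 16 (ileum and mid-jejunum), from 28 to 34, 34 to 37 and 37 to 38 (mid-jejunum and rumen), and from 31 to 34, 42 to 44 and 40 to 41 (ileum and rumen). At D0 they did not. The ileum and mid-jejunum count of 6 became 14 with all groups in 1 fit, 0 with the replicate block and 15 without the 3 ileum libraries, and ranged from 0 to 16 without each calf. The mid-jejunum and rumen count of 20 ranged from 7 to 23. The ileum and rumen count of 8 became 5 with no filter and 32 with all groups in 1 fit, and ranged from 0 to 4. Between D7 and D0 the mid-jejunum count of 8 became 5 with all groups in 1 fit and ranged from 5 to 9 without each library, the rumen count of 0 became 2 and ranged from 0 to 4, and the ileum count of 0 became 6 with all groups in 1 fit. The counts of genes whose change differed between regions fell from 6 to 3 (block) and 1 (without the 3 ileum libraries), and from 1 to 0 (block). Where no reason shows in the samples left, the cause was not tested.

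Between regions, the pairing by calf as a block changed no other count of called genes by over 1.5 times. Between ages the block joined equal animal numbers of different calves, so it is no check of pairing there. Of 145 differences of named genes, 140 kept their call with median-ratio scaling, 142 with the pseudocount of 0.1 and 131 with the block. Between regions, 120, 114 and 112 of 131 were kept without animals 1, 2 and 3. Without animals 4 and 5, 108 and 109 of 111 were kept. No direction turned in any alternative. These genes were named from the called ones, so the shares kept do not hold for all 53 genes. With median-ratio scaling the median of all genes moved by -0.20 and -0.27 (mid-jejunum and rumen, D21 and D42), -0.25, -0.39 and -0.47 (ileum and rumen, D7, D21 and D42), 0.15 (rumen, D21 and D7) and 0.11 (mid-jejunum, D7 and D0). The number of reads behind a value is unknown, and genes near 1 CPM, mostly in the rumen, cannot be resolved further.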
